A study of Canis lupus familiaris with 8 samples.

Results

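The 10 glycolysis genes considered were ALDOC, ALDOA, ENO1, LDHA, LDHB, PGK1, PKM, HK1, GPI and TPI1, and their transcripts were followed across canine blood T cells. The names were matched to gene symbols in the deposited gene list of 20257 genes. A gene with the symbol was found for 7 of the 10, namely HK1, GPI, ALDOC, TPI1, PGK1, ENO1 and LDHB. ALDOA, LDHA and PKM had no match by symbol and were not analysed here. The identifiers of the 7 in the list are ENSCAFG00000018719 for ALDOC, ENSCAFG00000019697 for ENO1, ENSCAFG00000012195 for LDHB, ENSCAFG00000017270 for PGK1, ENSCAFG00000013917 for HK1, ENSCAFG00000007303 for GPI and ENSCAFG00000014553 for TPI1. The rule used names of genes and none of their values.

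Blood was drawn from 4 healthy Beagle dogs, 1 female (dog 1, aged 5 years) and 3 males (dogs 2 and 3, both aged 7, and dog 4, aged 9). TCRαβ+ T cells were sorted by flow cytometry with an antibody to the canine receptor, frozen, thawed together, and profiled by 5′ single-cell RNA sequencing with matched T cell receptor (V(D)J) libraries. No dog was treated, so every comparison is between groups of cells within the same 4 dogs, and the dog (n = 4) is the replicate. Age and sex differ between single dogs and were not tested.

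Glycolysis converts glucose to pyruvate in the cytosol and yields ATP without oxygen. HK1, GPI, ALDOC and TPI1 act in its early steps, which spend ATP and split the sugar into triose phosphates, PGK1 and ENO1 act in the later steps towards pyruvate, and LDHB interconverts pyruvate and lactate. Resting naive T cells are known to use little glycolysis, while T cells that divide or carry out effector functions use more of it. Several of these enzymes have isoforms from separate genes, and ALDOC is the aldolase isoform best known from brain.

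The 4 gene expression libraries held 26904346 to 35661623 UMIs (unique molecular identifiers, each counting 1 captured transcript). Of 33125 barcodes, 31909 had 500 to 20000 UMIs and at most 10% of them in mitochondrial genes and were kept, with 7096, 8454, 8109 and 8250 cells in dogs 1 to 4 and medians of 3599 to 3931.5 UMIs per cell. The label of the sort was met in the data: all 7 T cell markers with a match were detected in every dog, at a sum of 3625 to 4111 CPM (UMIs of a gene scaled to 1e+06 UMIs in all), while the B cell genes CD22 and PAX5 and the monocyte genes CSF1R and FCGR1A were at 0 in all cells. The gene labelled CD79A, otherwise a B cell gene, was at 9179 to 10463 CPM in cells without MKI67, and what this row measures was not determined. Across libraries, 586 barcodes occurred in more than 1 dog (87 to 120 per pair of dogs), and leaving them out ended 1 of 26 calls, given at its place.

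Cells were grouped by the genes in which they had at least 1 UMI. CD4 single-positive cells (CD4 sp, 13247 cells) had CD4 and no CD8A, CD8A single-positive cells (CD8A sp, 6427 cells) had the reverse, 725 cells had both (dp) and 11510 had neither (dn). A gene can be missed at this depth, so a group without a UMI is not a group without the transcript. UMIs of all cells of a group were summed per dog and given as CPM, and 2 groups were compared by edgeR's quasi-likelihood test on the raw sums with the dog as a block, with p-values adjusted by Benjamini-Hochberg over all genes tested. A sum does not tell more cells with a transcript apart from more transcript per cell, and levels are not compared between genes. All 7 enzymes passed the filter on low counts in all 6 comparisons.

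Over all kept cells, ALDOC was at 57.8, 78.2, 83.7 and 112 CPM in dogs 1 to 4. The level was lowest in dog 1 and highest in dog 4, and 24.5% ± 5.63 (SD, n = 4) of cells had a UMI of it. HK1 was at 57.6, 101, 99.8 and 97.0 CPM, with dog 1 far below the other 3. Relative to their means, the other 5 enzymes spread less between dogs: GPI was at 171 ± 8.82 CPM (SD, n = 4), TPI1 at 239 ± 17.5, PGK1 at 107 ± 8.65, ENO1 at 29.4 ± 1.39 and LDHB at 273 ± 34.4 CPM. In dn cells ALDOC was at 60.3, 75.4, 95.3 and 126 CPM and in dp cells at 58.7, 67.0, 74.7 and 125 CPM, with the same order of dogs 1 to 4 as in all cells. Among cells with a TRB chain, more than 1, which doublets can show, was found in 21.6% of dp and 3.80% of CD4 sp cells (means over dogs). The dp cells enter only the MKI67 comparison over all cells.

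To place ALDOC, which cleaves the phosphorylated sugar into triose phosphates, among T cell states, cells were split into 9 classes that do not overlap: CD4 sp and CD8A sp cells without MKI67 having only CCR7 (the lymph node homing receptor of naive and central memory cells), only CXCR3 (a chemokine receptor of Th1 cells), only GZMB (granzyme B, a killing protease) or none of these 3, and all cells with MKI67, a gene of dividing cells. ALDOC was highest in CD4 sp cells with only CXCR3, at 112, 131, 127 and 153 CPM in dogs 1 to 4. It was higher there than in CD4 sp cells with none of the 3 genes (102 ± 26.5 CPM) in 4 of 4 dogs, and this was the only step between neighbouring classes in the order that exceeded the SD over dogs. The order went on with CD4 sp GZMB only (82.4 ± 21.6, n = 3), CD8A sp CXCR3 only (80.2 ± 33.5, n = 3), CD4 sp CCR7 only (71.4 ± 35.9) and CD8A sp with none (64.2 ± 10.4 CPM). It closed with CD8A sp GZMB only (53.8 ± 9.67), MKI67+ cells (50.6 ± 8.08) and CD8A sp CCR7 only (47.7 ± 11.6 CPM), and neighbours in this stretch did not differ beyond their spread. In CD4 sp cells with only CCR7, dog 4 stood at 122 CPM and dogs 1 to 3 at 38.4, 58.5 and 66.3 CPM. Dog 1 had fewer than 20 cells in the classes given with n = 3 and was left out of them.

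**Figure D1:**
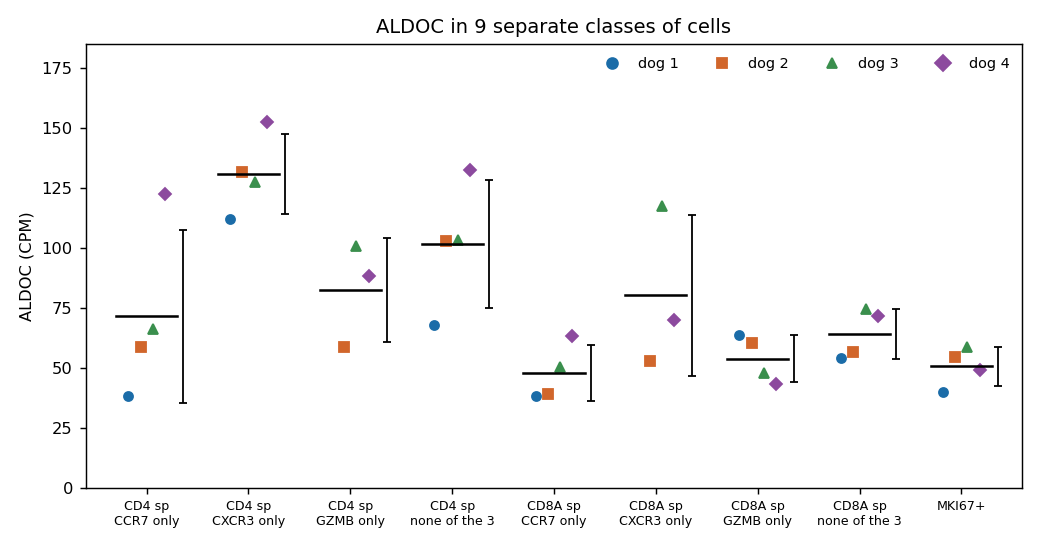
ALDOC in 9 classes of T cells that do not overlap. The y axis is the level in CPM of the summed UMIs, each point is 1 dog, the line is the mean and the bar the SD over dogs (n = 4, or 3 where dog 1 had fewer than 20 cells). CD4 sp cells with only CXCR3 stand highest at 131 ± 16.7 CPM and CD8A sp cells with only CCR7 lowest at 47.7 ± 11.6 CPM.

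Between the lineages, CD8A sp cells (6427 cells) had more HK1 and TPI1 and less ALDOC, PGK1 and LDHB than CD4 sp cells (13247 cells). Thus 5 of the 7 enzymes passed the test, 2 higher and 3 lower, where 27.4% of the 10595 genes tested passed it. HK1, the hexokinase that traps glucose in the cell, was at 86.6, 121, 120.3 and 109.7 CPM in CD8A sp cells of dogs 1 to 4 and at 51.4, 92.1, 91.0 and 92.3 CPM in CD4 sp cells. It was higher in CD8A sp cells of every dog, although the ranges overlapped because dog 1 was low in both (1.34-fold, log2 fold change 0.42 ± 0.072, adjusted p = 0.00320). TPI1, which interconverts the triose phosphates, was at 289.9, 267, 249 and 291 CPM against 204, 225, 225 and 252 CPM, again higher in 4 of 4 dogs (1.20-fold, log2 fold change 0.26 ± 0.057, adjusted p = 0.0105).

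PGK1, the kinase of the first ATP-forming step, was at 88.4, 86.6, 80.8 and 77.9 CPM in CD8A sp cells and at 115, 127, 110.2 and 108 CPM in CD4 sp cells. The groups did not overlap and every dog was lower in CD8A sp cells (0.718-fold, log2 fold change -0.48 ± 0.048, adjusted p = 0.000207). LDHB, the lactate dehydrogenase subunit that favours the use of lactate, was at 243, 235, 184 and 244 against 327, 301, 261 and 299.8 CPM. It too was lower in every dog without overlap (0.752-fold, log2 fold change -0.41 ± 0.048, adjusted p = 0.000425).

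ALDOC was at 56.6, 56.0, 62.0 and 53.4 CPM in CD8A sp cells and at 56.4, 90.1, 90.9 and 136 CPM in CD4 sp cells of dogs 1 to 4. The CD8A sp levels lay close together, while the CD4 sp levels ran from equal in dog 1 to far higher in dog 4 (0.613-fold, log2 fold change -0.71 ± 0.17, adjusted p = 0.0145). GPI, the isomerase after hexokinase, was at 159, 167, 157 and 165 against 193, 174, 183 and 169.8 CPM, lower in CD8A sp cells of every dog without overlap, yet it did not pass the test (log2 fold change -0.16 ± 0.056, adjusted p = 0.0659). ENO1, the enolase, was at 32.5, 31.7, 26.6 and 25.1 against 28.5, 29.5, 29.0 and 28.9 CPM, with dogs on both sides (log2 fold change -0.034 ± 0.081, adjusted p = 0.799). Leaving out dog 2 ended the calls of ALDOC (log2 fold change -0.71, adjusted p = 0.0598) and TPI1 (0.26, adjusted p = 0.0548), and without dog 4 GPI passed (-0.21, adjusted p = 0.0436) and ALDOC stood at -0.47. Without the dog as a block, HK1 did not pass (adjusted p = 0.153).

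**Figure D2:**
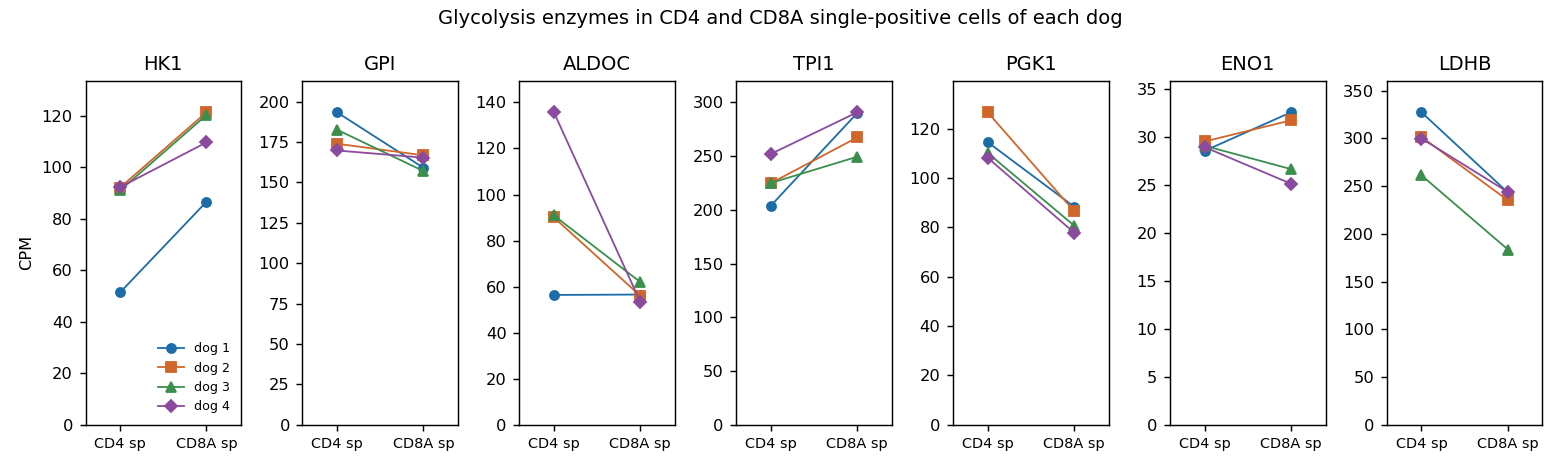
The 7 glycolysis enzymes in CD4 sp and CD8A sp cells. The y axis of each panel is the level in CPM from 0, each point is 1 dog, lines join the 2 values of a dog, and every panel has its own scale. All 4 lines rise for HK1 and TPI1 and all 4 fall for PGK1, LDHB and GPI, whereas the ALDOC line is flat in dog 1 and steepest in dog 4.

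Within CD4 sp cells, those with CCR7 (5304 cells, median 3976 UMIs) were set against those without (7943 cells, 3940 UMIs), to ask whether the enzymes differ between cells with a naive or central memory receptor and the rest. The naive markers LEF1 and TCF7 rose in the CCR7+ cells. HK1, ALDOC and TPI1 were lower with CCR7, and GPI, PGK1 and LDHB were higher. That is 6 of 7 enzymes against 22.5% of all 10032 genes tested, and only ENO1 did not pass (log2 fold change -0.058 ± 0.073, adjusted p = 0.633). The median log2 fold change of the 7 was -0.058.

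HK1 was at 37.7, 71.1, 70.8 and 72.0 CPM in CCR7+ cells of dogs 1 to 4 and at 64.4, 108, 108 and 100.4 CPM in CCR7- cells. Every dog was lower with CCR7, and it had the largest difference of the 7 (0.672-fold, log2 fold change -0.57 ± 0.054, adjusted p = 1.62e-06). ALDOC was at 40.9, 67.6, 72.7 and 139 against 71.2, 107, 106 and 134 CPM, lower in dogs 1 to 3 and slightly higher in dog 4 (0.749-fold, log2 fold change -0.42 ± 0.094, adjusted p = 0.00418). TPI1 was at 182, 199, 205 and 235 against 224, 244, 241 and 258 CPM, lower in 4 of 4 dogs (0.865-fold, log2 fold change -0.21 ± 0.038, adjusted p = 0.000716).

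LDHB, on the side of the enzymes that were higher with CCR7, was at 321, 327, 286 and 348 CPM against 333, 282, 240.3 and 281 CPM. It was higher in dogs 2 to 4 and lower in dog 1 (1.16-fold, log2 fold change 0.21 ± 0.049, adjusted p = 0.00531). The differences of PGK1 (1.11-fold, log2 fold change 0.15 ± 0.044, adjusted p = 0.0197) and GPI (1.09-fold, log2 fold change 0.12 ± 0.040, adjusted p = 0.0377) were small, with 4 of 4 dogs higher for each. The call of ALDOC ended without dog 2 (log2 fold change -0.35, adjusted p = 0.0535), that of PGK1 without dog 3 (adjusted p = 0.0793) or dog 4 (0.0620), and that of GPI without dog 2 (0.0964), dog 3 (0.181) or dog 4 (0.0685) and without the shared barcodes (0.0520). None of the 7 passed without the dog as a block in edgeR (2 at an unadjusted p under 0.05), and DESeq2 with the block called 3.

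In CD8A sp cells the same split (772 cells with CCR7, median 4436.5 UMIs, and 5655 without, 3630 UMIs) gave lower HK1 and TPI1 and higher PGK1, 3 of 7 enzymes beside 16.7% of 8767 genes. HK1 was at 39.3, 55.2, 65.6 and 87.5 CPM with CCR7 and at 96.4, 137, 132 and 111 CPM without it. The groups did not overlap, and this was the largest difference of HK1 in any of the 6 comparisons (0.537-fold, log2 fold change -0.90 ± 0.12, adjusted p = 7.51e-06). TPI1 was at 203, 229, 183 and 276 against 308, 276, 264 and 292 CPM, lower in 4 of 4 dogs (0.832-fold, log2 fold change -0.27 ± 0.081, adjusted p = 0.0244). PGK1 was at 118, 122, 77.8 and 87.5 against 82.3, 78.1, 81.4 and 77.2 CPM, higher in dogs 1, 2 and 4 (1.33-fold, log2 fold change 0.41 ± 0.11, adjusted p = 0.0137).

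ALDOC was at 49.7, 45.0, 63.7 and 62.2 CPM in the CCR7+ CD8A sp cells and at 58.0, 58.7, 61.6 and 52.8 CPM in the CCR7- cells. Dogs lay on both sides (log2 fold change 0.028 ± 0.12, adjusted p = 0.923), and the sign depended on the setting, for example -0.24 among cells of 3000 to 5000 UMIs. LDHB (log2 fold change 0.11 ± 0.080, adjusted p = 0.408), GPI (log2 fold change 0.043 ± 0.084, adjusted p = 0.804) and ENO1 (log2 fold change 0.22 ± 0.16, adjusted p = 0.411) did not pass either. The call of PGK1 ended without dog 1 (log2 fold change 0.36, adjusted p = 0.0686) or dog 2 (0.26, 0.273), and that of TPI1 without dog 1 (0.100), dog 2 (0.0808) or dog 3 (0.234). Both were also lost without the dog as a block, by DESeq2 and with at least 2 UMIs asked of a positive cell, for CD8A as well as CCR7.

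Whether the CCR7 difference itself differed between the lineages was tested by the interaction of CCR7 with lineage over 16 sums. None of the 7 enzymes passed, where edgeR called 238 of 10156 genes (1392 at an unadjusted p under 0.05). For ALDOC the CCR7 effect in CD8A sp minus that in CD4 sp cells was 0.47 ± 0.30 on the log2 scale (adjusted p = 0.556), so a difference between the lineages was not shown. HK1 gave -0.35 ± 0.15 (unadjusted p = 0.0302, adjusted p = 0.291, edgeR quasi-likelihood test) and was the only one of the 7 at an unadjusted p under 0.05.

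CXCR3 marks Th1 cells, and the study itself listed ALDOC among the genes of its Th1 cluster from these same cells, so the direction of ALDOC here is not independent evidence. CD4 sp cells with CXCR3 (2457 cells) had more ALDOC, HK1 and TPI1 than those without (10790 cells). These 3 of 7 enzymes passed, all higher, beside 17.0% of 10077 genes, and the 5 Th1 markers (IL18R1, IL12RB2, IFNG, TBX21 and CCR9), some of which the study also named there, were higher as well. ALDOC was at 93.4, 119, 114 and 152 CPM in CXCR3+ cells of dogs 1 to 4 and at 52.9, 80.6, 84.1 and 127 CPM in CXCR3- cells. Every dog was higher with CXCR3, by the most in dog 1 and the least in dog 4, and the ranges overlapped (1.36-fold, log2 fold change 0.44 ± 0.071, adjusted p = 0.000398). Leaving out each dog in turn left ALDOC past the threshold each time.

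As shares of cells, 40.9% ± 4.42 of CXCR3+ and 25.1% ± 7.96 of CXCR3- CD4 sp cells had an ALDOC UMI (SD, n = 4), but the CXCR3+ cells were deeper (median 4766 against 3809.5 UMIs). After every cell was thinned to 2000 UMIs and shallower cells were left out, the shares were 23.9% ± 4.89 and 15.0% ± 5.44. Groups were then formed anew from the thinned counts (802 CXCR3+ and 7575 CXCR3- cells). A cell that lost its CXCR3 UMIs could thus count as CXCR3-, and these are not the same groups. RNA from broken cells can add UMIs to any droplet, and no cell type here should lack glycolysis enzymes, so that background could not be read off.

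HK1 was at 99.9, 125, 123 and 96.5 CPM with CXCR3 and at 46.9, 81.5, 81.5 and 90.1 CPM without it. The groups did not overlap, and the gap was widest in dog 1 and narrowest in dog 4 (1.42-fold, log2 fold change 0.51 ± 0.097, adjusted p = 0.00169). TPI1 was at 276, 263, 248 and 256 against 197, 212, 218 and 249.6 CPM, higher in 4 of 4 dogs (1.16-fold, log2 fold change 0.21 ± 0.060, adjusted p = 0.0215). ENO1 was at 46.7, 35.6, 28.5 and 29.7 against 26.8, 27.5, 29.2 and 28.5 CPM, with dog 1 well above the rest in the CXCR3+ cells, and did not pass (log2 fold change 0.23 ± 0.11, adjusted p = 0.159). LDHB was lower in 4 of 4 dogs without passing (log2 fold change -0.12 ± 0.051, adjusted p = 0.136), PGK1 stood at -0.089 ± 0.064 and GPI at 0.0034 ± 0.051 on the log2 scale.

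The 4 cycling markers with a match (TOP2A, CLSPN, KIF15 and CDK1) were also all higher in the CXCR3+ CD4 sp cells, at a summed 25.7 to 61.4 CPM against 4.52 to 15.4 CPM. Their part in the differences of ALDOC, HK1 and TPI1 was not tested. The call of HK1 ended without dog 2 (log2 fold change 0.49, adjusted p = 0.0535), and that of TPI1 without dog 1 (0.0557), dog 2 (0.184) or dog 3 (0.0883). None of the 7 passed in edgeR without the dog as a block (2 at an unadjusted p under 0.05, ALDOC adjusted p = 0.269). ALDOC also did not pass in edgeR when at least 2 UMIs were asked of a positive cell (log2 fold change 0.31, adjusted p = 0.0896). That setting applied to CD4 as well as CXCR3, and left 505 CXCR3+ and 6291 CXCR3- cells.

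Among CD8A sp cells, those with GZMB (3931 cells, median 3511 UMIs) had more HK1 and less LDHB than those without (2496 cells, 4183.5 UMIs). These were 2 of 7 enzymes, beside 18.5% of 9397 genes, and all 7 cytotoxic markers with a match rose. Of the 4 cycling markers tested, 2 (KIF15 and TOP2A) were also higher with GZMB, and the list summed to 20.5 to 32.1 against 6.92 to 18.5 CPM. Their part in the differences of HK1 and LDHB was not tested. HK1 was at 107, 145, 139 and 121 CPM in GZMB+ cells of dogs 1 to 4 and at 62.0, 94.7, 92.2 and 92.5 CPM in GZMB- cells. The groups did not overlap and every dog was higher (1.46-fold, log2 fold change 0.54 ± 0.074, adjusted p = 0.000136). LDHB was at 241, 221, 179 and 209 against 246, 251, 190.2 and 299 CPM, lower in 4 of 4 dogs and by the most in dog 4 (0.843-fold, log2 fold change -0.25 ± 0.073, adjusted p = 0.0291).

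GPI was at 161, 192, 169.5 and 171 CPM with GZMB and at 157, 138, 138 and 156 CPM without, higher in every dog and without overlap, but it did not pass (log2 fold change 0.22 ± 0.076, adjusted p = 0.0604). ALDOC was at 61.1, 60.8, 53.7 and 43.1 against 51.2, 50.7, 74.6 and 69.8 CPM, with dogs 1 and 2 higher and dogs 3 and 4 lower in GZMB+ cells (log2 fold change -0.27 ± 0.13, adjusted p = 0.192). PGK1 was at 78.0, 76.4, 83.4 and 70.3 against 101, 98.2, 76.6 and 89.9 CPM, lower in 3 of 4 dogs (log2 fold change -0.25 ± 0.089, adjusted p = 0.0673), TPI1 had log2 fold change 0.18 ± 0.067, adjusted p = 0.0852, and ENO1 log2 fold change 0.11 ± 0.13, adjusted p = 0.622. The call of LDHB ended without dog 2 (adjusted p = 0.101), dog 3 (0.0533) or dog 4 (log2 fold change -0.16, 0.156), without the dog as a block (0.264) and by DESeq2 (0.214). ALDOC passed without dog 2 (-0.43, adjusted p = 0.0493), PGK1 without dog 3 (-0.37, 0.0139) and GPI without dog 1 (0.28, 0.0208).

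Cells with MKI67 (768 cells) were compared with all other kept cells (31141 cells) to ask how the enzymes differ in dividing T cells. All 7 passed the test, 6 higher and ALDOC lower, where 39.8% of the 11156 genes tested passed. ALDOC was at 40.1, 54.5, 58.8 and 49.1 CPM in MKI67+ cells of dogs 1 to 4 and at 58.5, 79.7, 84.5 and 115 CPM in MKI67- cells. It was lower in every dog and by far the most in dog 4, with an overlap only between dog 3 with MKI67 and dog 1 without (0.595-fold, log2 fold change -0.75 ± 0.11, adjusted p = 1.33e-06). ENO1 was at 48.1, 61.6, 59.7 and 43.6 against 27.3, 29.4, 28.3 and 28.0 CPM, the largest rise of the 7 (1.85-fold, log2 fold change 0.89 ± 0.11, adjusted p = 1.21e-07).

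TPI1 was at 372, 358, 324 and 364 CPM in MKI67+ cells and at 214, 228, 233 and 259 CPM in MKI67- cells. Every MKI67+ value was above every MKI67- value (1.48-fold, log2 fold change 0.57 ± 0.064, adjusted p = 2.09e-08). The same separation held for HK1, at 103, 134, 132 and 138 against 55.6, 98.6, 98.7 and 95.3 CPM (1.43-fold, log2 fold change 0.51 ± 0.080, adjusted p = 5.74e-06), and for GPI, at 216, 246, 236 and 238 against 182, 162, 166 and 161 CPM (1.37-fold, log2 fold change 0.45 ± 0.070, adjusted p = 5.93e-06). LDHB rose to 397, 362, 336 and 377 CPM from 307, 272, 224 and 272 CPM and PGK1 to 124, 161, 129.7 and 128 from 113, 112, 98.3 and 97.8 CPM, again in every dog and without overlap (1.34-fold, log2 fold change 0.42 ± 0.061, adjusted p = 1.78e-06, and 1.26-fold, log2 fold change 0.34 ± 0.079, adjusted p = 0.000887).

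These differences moved with depth. MKI67+ cells had a median of 6102 UMIs against 3762, and 3.18% against 2.18% mitochondrial UMIs. Of the cells with a TRB chain, 6.08% against 3.67% had more than 1. Among cells of 3000 to 5000 UMIs (161 with MKI67) none of the 7 passed the edgeR test, adjusted or unadjusted, with ENO1 at -0.051, LDHB at -0.045, TPI1 at 0.044, HK1 at 0.24 and ALDOC at 0.17 on the log2 scale. The cycling markers were still higher there in 4 of 4, with a median log2 fold change of 4.18 against 5.74 over all cells. Among cells of 5000 to 10000 UMIs, a range added after the data had been seen, ALDOC (-0.72, adjusted p = 6.80e-05), ENO1 (0.86), HK1 (0.33) and LDHB (0.30) passed and GPI, TPI1 and PGK1 did not.

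After every cell was thinned to 2000 UMIs, groups were formed anew, with 422 cells having MKI67. Only ALDOC then passed the edgeR test (-0.67, adjusted p = 0.0114), with ENO1 at 0.66 (adjusted p = 0.0769). Within CD4 sp cells alone all 7 passed in the same directions, with ALDOC at -0.83, ENO1 at 0.77 and HK1 at 0.68. Leaving out the cells with more than 1 TRB chain ended no call. The monocyte list summed to 2.84 to 12.1 CPM in MKI67+ and 0.455 to 0.704 CPM in MKI67- cells, with LYZ the 1 gene tested and higher, and of the B cell list 2 of 4 genes tested rose and 2 fell. LYZ was at 2.84 to 9.33 CPM (30 UMIs) in MKI67+ cells against 0.237 to 0.576 CPM, and CD79B, a B cell gene, at 2.67 to 3.96 (20 UMIs) against 0.182 to 0.32 CPM, with CD22, PAX5, CSF1R and FCGR1A at 0 in both groups. Their part in the result was not tested. The call of PGK1 ended without dog 2 (log2 fold change 0.24, adjusted p = 0.0580).

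**Figure D3:**
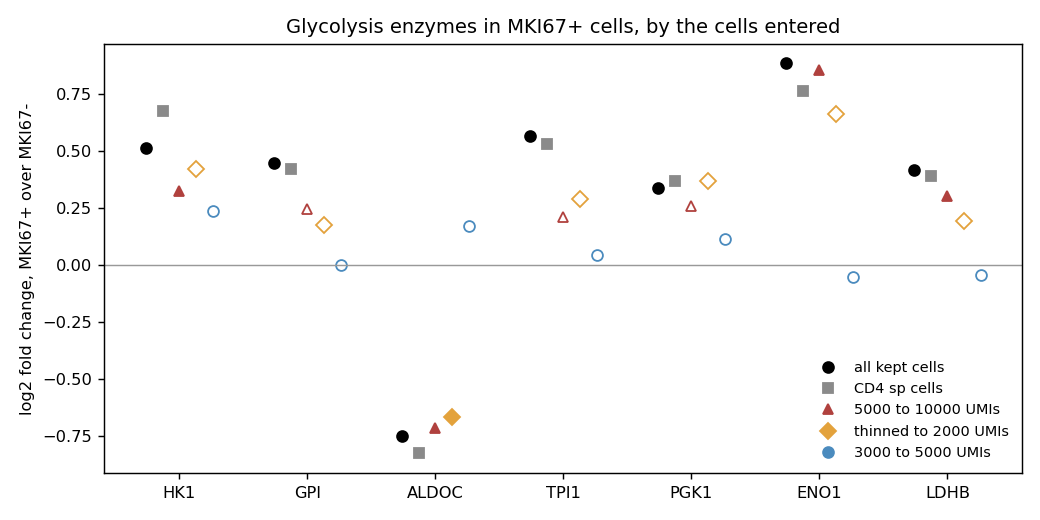
MKI67+ against MKI67- cells for the 7 glycolysis enzymes over all cells and under 4 restrictions of the cells. The x axis gives the enzymes and the y axis the fitted log2 fold change over 4 dogs, colours mark the cells entered, and filled points have an adjusted p under 0.05 and open points do not. All 7 are filled over all cells and none among cells of 3000 to 5000 UMIs, where ALDOC stands at 0.17 in place of -0.75.

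Set side by side, HK1 passed in 6 of 6 comparisons, TPI1 in 5, ALDOC, LDHB and PGK1 in 4 each, GPI in 2 and ENO1 in 1. These comparisons use the same cells in part, so their counts are not independent. Per comparison 16.7% to 39.8% of all genes passed. The share of genes passing in as many comparisons as HK1 is not given, so 6 of 6 cannot be read as particular to it. Of the 26 calls, 15 held whichever dog was left out. The TPI1 calls with CXCR3 and with CCR7 in CD8A sp cells each held in only 1 of the 4 fits that left out a dog. The same was true of LDHB with GZMB and of GPI with CCR7 in CD4 sp cells. Of the 7 MKI67 calls, none held in the lower UMI range given above and 4 in the higher. The PGK1 calls with CCR7 each ended without some single dogs and without the dog as a block. The PGK1 call in CD8A sp cells ended by DESeq2 as well. HK1 and TPI1 were higher in CD8A sp, CXCR3+ and MKI67+ cells and lower in CCR7+ cells of both lineages, and HK1 was also higher in GZMB+ cells. PGK1 was lower in CD8A sp cells and higher in CCR7+ cells of both lineages and in MKI67+ cells. ALDOC was higher in CXCR3+ cells and lower in CD8A sp, MKI67+ and CCR7+ CD4 sp cells, and LDHB was lower in CD8A sp and GZMB+ cells and higher in MKI67+ and CCR7+ CD4 sp cells.

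**Figure D4:**
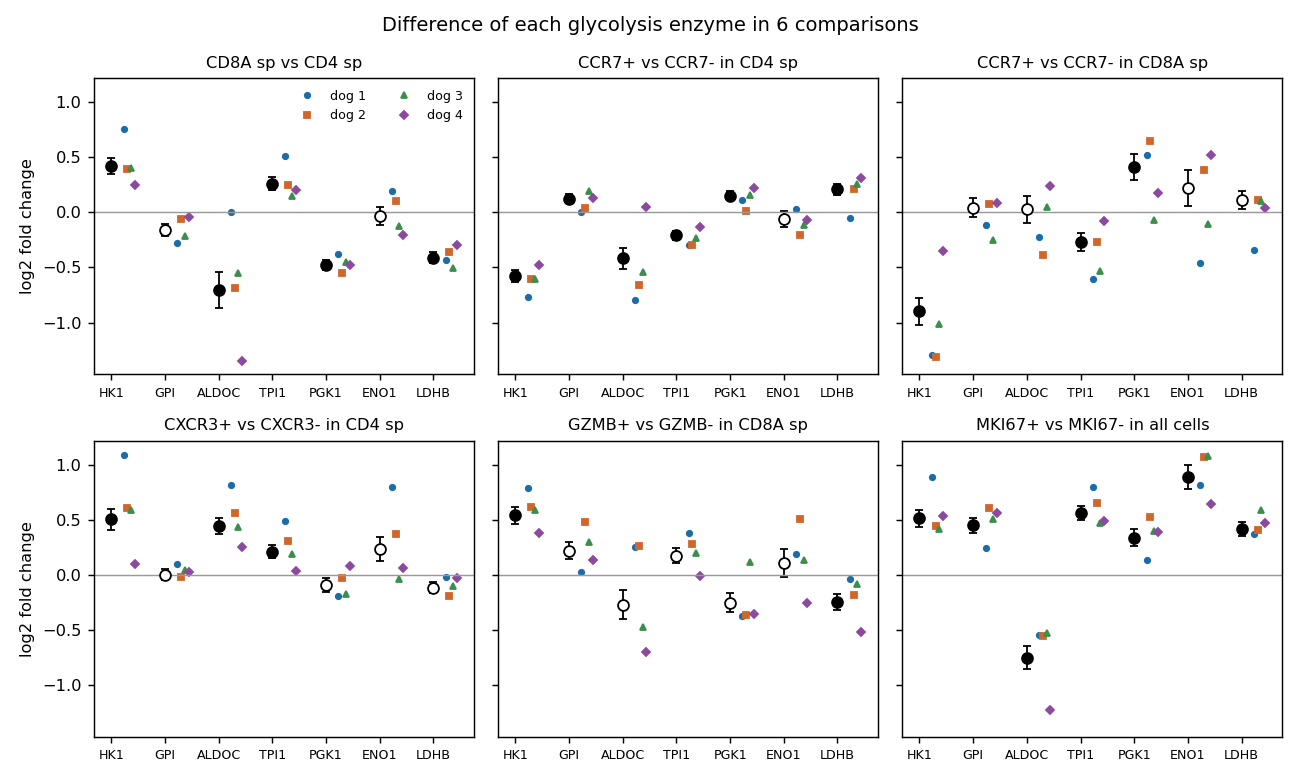
Difference of each of the 7 glycolysis enzymes in 6 comparisons of cell groups. The x axis of each panel gives the enzymes and the y axis the fitted log2 fold change with its SE as a bar, black filled points have an adjusted p under 0.05, open points do not, and small coloured points are the log2 ratios of single dogs (n = 4). HK1 is filled in every panel, and ALDOC lies above 0 in the CXCR3 panel (0.44) and below it in the MKI67 panel (-0.75).

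Across the 9 classes, MKI67+ cells had the highest mean of GPI (234 ± 12.7 CPM), TPI1 (354 ± 21.2), PGK1 (136 ± 17.1), ENO1 (53.2 ± 8.81) and LDHB (368 ± 25.7 CPM). The step to the next class exceeded the SD over dogs for these except PGK1. In dogs with both classes, MKI67+ cells were higher in 4 of 4 for PGK1 and LDHB and in 3 of 3 for GPI, TPI1 and ENO1. The MKI67+ class was also the deepest, at a median of 6102 UMIs against 3367 to 5025 in the other classes. Depth was not matched here, and its part in this ranking was not tested. In the MKI67 comparison, none of these enzymes passed in the lower UMI range given above. In the higher range ENO1 and LDHB passed and GPI, TPI1 and PGK1 did not. HK1 was highest in CD8A sp cells with only GZMB (132 ± 15.9 CPM) and lowest with only CCR7, at 52.7 ± 13.5 CPM in CD4 sp and 49.2 ± 21.3 CPM in CD8A sp cells. Its one step beyond the spread lay between CD4 sp cells with none of the 3 genes (89.0 ± 20.8 CPM) and CD4 sp cells with only CCR7, in 4 of 4 dogs. TPI1 had the same 2 classes at the bottom (197 ± 23.4 and 192 ± 21.6 CPM). PGK1 and LDHB instead were second highest in CD4 sp cells with only CCR7 (121 ± 4.74 and 321 ± 28.5 CPM) and lowest in CD8A sp cells with only GZMB (73.0 ± 7.41 and 197 ± 21.0 CPM).

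**Figure D5:**
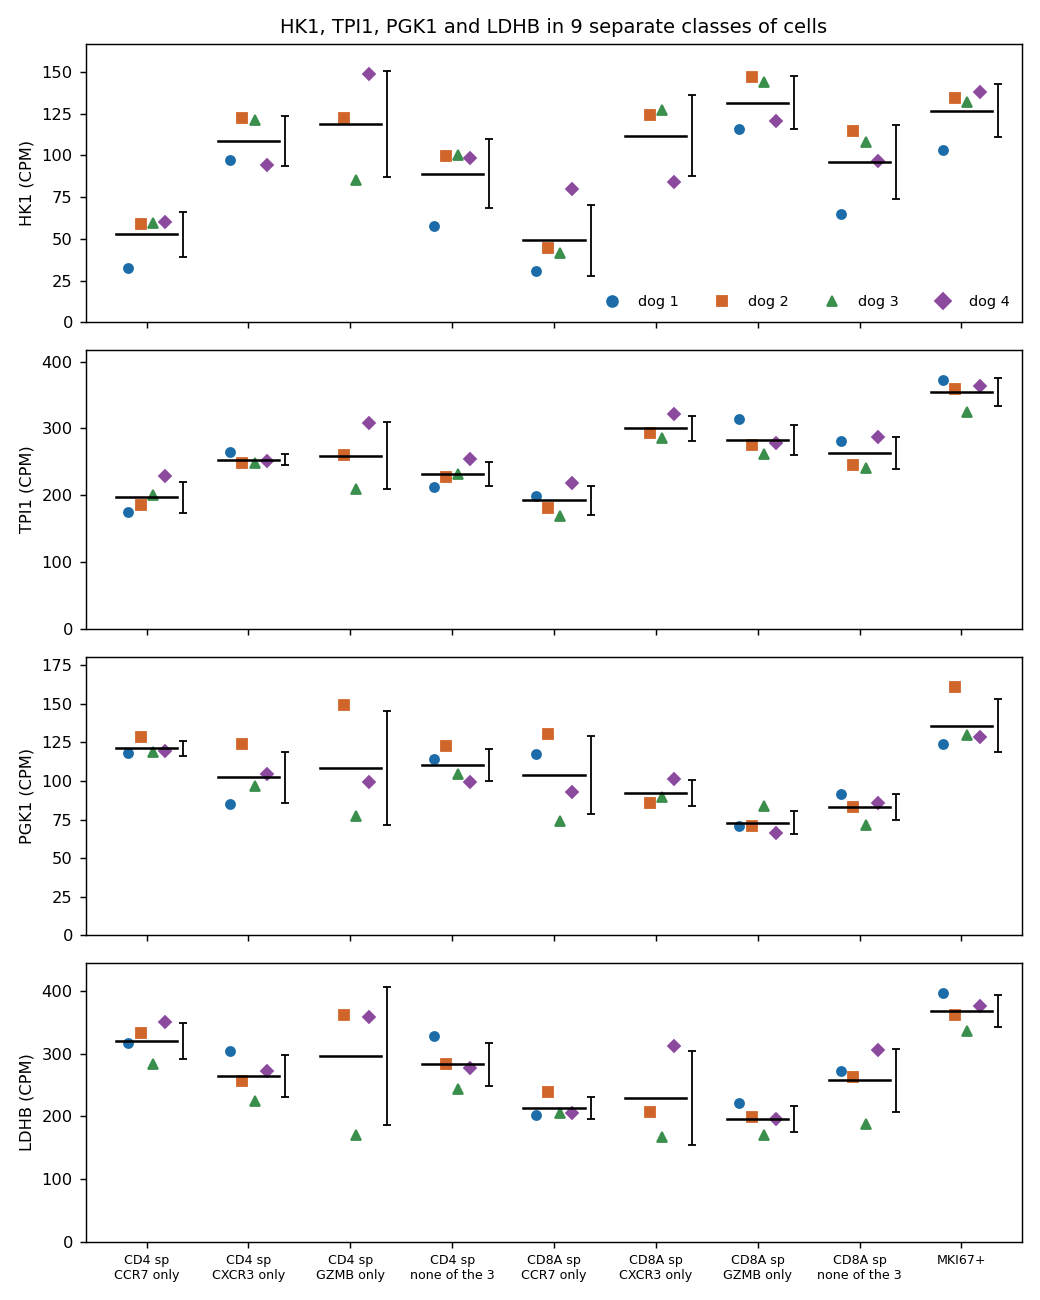
HK1, TPI1, PGK1 and LDHB in the 9 classes of T cells. The y axis of each panel is the level in CPM from 0, points are dogs, lines are means and bars the SD over dogs (n = 4, or 3 for CD4 sp GZMB only and CD8A sp CXCR3 only). HK1 and TPI1 are lowest in the classes with only CCR7, while PGK1 and LDHB are lowest in CD8A sp cells with only GZMB (73.0 ± 7.41 and 197 ± 21.0 CPM). Depth was not matched between the classes, and MKI67+ cells were the deepest.

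Over the 34 sums of these classes and dogs, centred within each dog, Pearson's r on the scale log2(CPM + 10) was 0.86 between HK1 and TPI1, 0.74 between LDHB and PGK1, 0.72 between ENO1 and GPI and 0.65 between LDHB and GPI. PGK1 and HK1 had -0.23. ALDOC had -0.12 to 0.21 with the other 6. Among 5493 genes, those closest to ALDOC by this measure included RASSF7 (0.87), MPP7 (0.80), RABAC1 (0.79) and IL2RG (0.78). HK1 was closest to TPM3 (0.92), LCP1 (0.91) and ACTR2 (0.91), and TPI1 shared LCP1 among its 5 closest (0.92). These sums share libraries and differ in depth, and the values are descriptions without a test.

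Levels also moved with the depth of a cell within CD4 sp cells. HK1 was at 141 ± 34.2 CPM (SD, n = 4) in cells of 500 to 1999 UMIs and at 69.0 ± 23.1, 78.6 ± 16.3 and 96.4 ± 18.0 CPM in the ranges of 2000 to 3999, 4000 to 5999 and 6000 to 20000 UMIs. LDHB had 195 ± 13.4, 296 ± 25.9, 295 ± 26.7 and 324 ± 44.0 CPM and TPI1 128 ± 19.0, 211 ± 27.8, 232 ± 20.7 and 254 ± 11.3 CPM in the same ranges. The shallowest cells thus had the highest HK1 and the lowest LDHB and TPI1 means, and they also had the highest share of mitochondrial UMIs (4.52% against 2.22% in the next range). ALDOC was at 79.5 ± 15.1, 86.0 ± 39.3, 105 ± 35.0 and 84.3 ± 23.6 CPM. In the deepest range 19.3% of the cells with a TRB chain had more than 1. In CD8A sp cells HK1 was at 146 ± 31.3 CPM in the shallowest range and at 116 ± 26.0, 102 ± 14.2 and 107 ± 9.26 CPM in the deeper ranges. LDHB and TPI1 means were again lowest in the shallowest CD8A sp cells (152 ± 55.0 and 203 ± 19.8 CPM). Within CD8A sp cells, the GZMB+ and the CCR7- cells, which had more HK1, were the shallower group of their comparison.

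Of 18 other glycolysis enzymes listed, 16 had a match and 8 to 10 were tested in a comparison. Of the enzymes tested, 1 of 9 passed for CD8A sp, 3 of 9 for CCR7+ CD4 sp and 1 of 8 for CCR7+ CD8A sp cells. For CXCR3+, GZMB+ and MKI67+ cells 2 of 9, 1 of 8 and 3 of 10 passed. The share was below that over all genes in 4 of the 6 comparisons. GAPDH, the enzyme before PGK1, fell with CCR7 in CD4 sp cells (-0.47 ± 0.056 on the log2 scale) and rose with CXCR3 (0.60 ± 0.10), GZMB (0.42 ± 0.086) and MKI67 (1.32 ± 0.093). PFKP, a phosphofructokinase, rose in CD8A sp cells (0.27 ± 0.082), fell with CCR7 in CD4 sp cells (-0.55 ± 0.087) and rose with CXCR3 (0.65 ± 0.11) and MKI67 (0.70 ± 0.12). ENO2, the other enolase isoform that passed, rose with CCR7 in CD4 sp (0.28 ± 0.054) and CD8A sp cells (0.37 ± 0.11) and fell with MKI67 (-0.45 ± 0.094).

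TXNIP, which restrains glucose uptake, passed in all 6 comparisons. It fell in CD8A sp (-0.27 ± 0.078), CXCR3+ (-0.66 ± 0.10), GZMB+ (-0.65 ± 0.13) and MKI67+ cells (-1.31 ± 0.087) and rose with CCR7 in CD4 sp (0.42 ± 0.050) and CD8A sp cells (0.78 ± 0.095). Its direction was thus opposite to that of HK1 in each comparison. The share of all genes that pass in all 6, or that run opposite to HK1, is not given. This pattern therefore cannot be read as particular to TXNIP, and the comparisons share cells. SLC2A3, a glucose transporter, rose in CD8A sp (0.40 ± 0.13) and GZMB+ cells (0.46 ± 0.094) and fell with CCR7 in CD4 sp (-0.19 ± 0.051) and CD8A sp cells (-0.64 ± 0.11). SLC2A1, another glucose transporter, fell with MKI67 (-0.58 ± 0.17), where 2 transport and regulation genes passed higher and 3 lower. Of the tested transport and regulation genes, 2 to 5 of 9 to 11 passed per comparison (20% to 45.5%, beside 16.7% to 39.8% of all genes).

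In the pathways that branch from or follow glycolysis, MKI67+ cells had 4 of 7 pentose phosphate genes higher and none lower, TKT among them (1.10 ± 0.095), and 11 of 22 genes of pyruvate entry and the TCA cycle higher and 2 lower, beside the 39.8% of all genes above. In the other 5 comparisons 1 to 3 of the TCA list (4.55% to 13.6%) and 0 to 2 of the pentose phosphate list (0 to 28.6%) passed. The share over all genes there was 16.7% to 27.4%. Of 17 HIF-1 targets and regulators tested, 7 were lower and none higher in CXCR3+ CD4 sp cells (median log2 fold change -0.22, all genes -0.0098), among them MXI1 (-0.90 ± 0.090) and MYC (-0.51 ± 0.067). The 7 were 41.2% of those tested, beside 17.0% of all genes. In MKI67+ cells 8 of 17 were lower and 1 higher (52.9%, beside 39.8% of all genes). In the other 4 comparisons 3 to 5 of this list passed (17.6% to 29.4%, beside 16.7% to 27.4% of all genes).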

How the data were processed

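Canine TCRαβ+ T cells of 4 dogs were sequenced as 5′ single-cell libraries. The authors ran Cell Ranger 5.0.1 (per the submitters' processing notes) against CanFam3.1, and deposited UMI counts per gene and barcode for each dog, not normalized. The gene list deposited for dog 1 had 27980 entries and was not used. Its matrix was read with the list of the other dogs, which its gene totals matched (r = 0.989 to 0.991 on a log scale).

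Barcodes were kept at 500 to 20000 UMIs and at most 10% of UMIs in 13 mitochondrial genes, after the study's limits. UMIs were summed per dog and group, and sums of fewer than 20 cells were left out. Python 3.11.15 (numpy 2.4.6, scipy 1.17.1, pandas 2.3.3) was used for sums, and R 4.3.3 with edgeR 4.0.16 for the tests: TMM, filterByExpr, glmQLFit and glmQLFTest with the dog as a block, Benjamini-Hochberg over all genes, threshold 0.05. The genes that define a split were left out of its test. Values after ± are the SE for a log2 fold change and the SD over dogs for a CPM or a share. The SE was derived as the absolute log2 fold change divided by the square root of the F statistic of edgeR's test. The code was checked on simulated counts. The alternatives were no block, DESeq2 1.42.0, relative log expression size factors, no filter, at least 2 UMIs for a positive cell, cells of 3000 to 5000 UMIs, thinning to 2000 UMIs, no cells with more than 1 TRB and each dog left out. After thinning, all groups were formed anew from the thinned counts, so fewer cells were positive for a gene. Removal of barcodes shared by libraries, and cells of 5000 to 10000 UMIs, were added after the data were seen. No doublet caller was run. V(D)J files were used only to count TRB chains.

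All 7 enzymes with a match were described in every comparison. Of other lists at most the 4 passing genes of largest change per comparison were named, and the closest genes were the 5 with the highest correlation among genes of mean CPM of at least 20. Some genes that these rules name are not reported here. Enzymes and lists were chosen with earlier results of these data known.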

Additional observations from a re-analysis of the deposited data

Results flagged for a closer look

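In 4 of 49 groups of 4 dogs examined, 1 dog's gap to the nearest other dog was above Dixon's critical share of the range, which chance alone gives in about 1 in 20 groups. HK1 over all kept cells was at 57.6 CPM in dog 1 and at 101, 99.8 and 97.0 CPM in dogs 2 to 4. The log2 ratio of ALDOC in MKI67+ over MKI67- cells was -1.22 in dog 4 and -0.55 to -0.52 in the other 3. For LDHB in CD8A sp cells, the log2 ratio of CCR7+ over CCR7- cells was -0.35 in dog 1 and 0.044 to 0.11 in the others. For PGK1 in CD8A sp cells, the ratio of GZMB+ over GZMB- cells was 0.12 in dog 3 and -0.37 to -0.36 in the others. Dog 1 was the only female and the youngest and dog 4 the oldest, and with 1 dog each these cannot be told apart from the animal.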

How the results depend on the processing

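Of the 26 enzyme results past the threshold (of 42), all 26 kept direction and call with size factors by relative log expression, without the filter on low counts and without cells of more than 1 TRB chain, 25 without barcodes shared between libraries, 23 with at least 2 UMIs for a positive cell and 19 by DESeq2. Thinning kept 15, and the range of 3000 to 5000 UMIs kept 15, turned 4 and ended 7. Leaving out each dog kept 15 in every case, with 23, 16, 21 and 23 kept without dogs 1 to 4.

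The pairing comes from the animal, since both sums of a pair are from the same dog. Without the dog as a block 13 calls were kept, and the counts of genes fell to 1428 (CD8A sp against CD4 sp), 5 (CCR7 in CD4 sp), 764 (CCR7 in CD8A sp), 81 (CXCR3) and 673 (GZMB), with 0, 1, 0 and 1 enzymes passing in the last 4 and 2 and 2 at an unadjusted p under 0.05 where none passed. DESeq2 gave 959, 808, 840 and 814 genes in these 4, and 3, 1 and 1 enzymes in the CCR7 and GZMB comparisons.

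Thinning gave 1049, 647, 401, 1152 and, for MKI67, 1413 genes, with 3 enzymes for CCR7 in CD4 sp and 1 for MKI67. Cells of 3000 to 5000 UMIs gave 942 (CXCR3), 1131 (GZMB) and 322 genes (MKI67), the last with 0 enzymes and 0 at an unadjusted p under 0.05. At least 2 UMIs gave 1022 genes for CXCR3 and 1 enzyme for CCR7 in CD8A sp, and no filter gave 5 enzymes for GZMB. For MKI67, CD4 sp cells alone gave 2839 genes and 5000 to 10000 UMIs 1824 genes and 4 enzymes. The causes of these changes were not tested. Leaving out 1 dog gave 1999 to 2603, 1339 to 2292, 887 to 1363, 618 to 1905, 1122 to 1515 and 3445 to 3950 genes in the 6 comparisons, and 3 to 6, 4 to 6, 1 to 3, 1 to 3, 1 to 3 and 6 to 7 enzymes. The lowest gene counts came without dog 2 for CCR7 in CD4 sp (1339) and CXCR3 (618), and without dog 3 for CCR7 in CD8A sp (887) and GZMB (1122).

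The sign turned, as log2 fold change, for ALDOC with CCR7 in CD8A sp (no filter -0.015, 2 UMIs -0.15, 3000 to 5000 UMIs -0.24, thinned -0.45, without 1 dog -0.072 to 0.15), and there for GPI (no filter -0.00038, thinned -0.29, without 1 dog -0.013 to 0.12) and ENO1 (3000 to 5000 UMIs -0.037). ENO1 turned between the lineages (without 1 dog -0.086 to 0.019), with CCR7 in CD4 sp (thinned 0.0052) and with GZMB (3000 to 5000 UMIs -0.11, thinned -0.20, without 1 dog -0.025 to 0.23). With CXCR3, GPI turned (no filter -0.0071, 2 UMIs -0.0051, 3000 to 5000 UMIs -0.067, thinned -0.050, without 1 dog -0.0022 to 0.024, without shared barcodes -0.00050), as did PGK1 (2 UMIs 0.042). None of these passed the test, either way. With MKI67 in cells of 3000 to 5000 UMIs, ALDOC (0.17), ENO1 (-0.051), LDHB (-0.045) and GPI (-0.000060) turned, and the cause was not tested.

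The data limit these results to groups by detected UMIs in 4 dogs. Free RNA and doublets were not modelled, and copies of these genes elsewhere in the genome, which share reads with them, were not examined.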

Other observations

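The 11510 cells with neither coreceptor and the 725 cells with both enter the MKI67 comparison but none of the other 5. In dn cells HK1 was at 57.1, 101, 91.8 and 93.9 CPM in dogs 1 to 4, close to its levels over all kept cells and again lowest in dog 1. LDHB was at 271 ± 31.5 CPM (SD, n = 4) in dn and 244 ± 30.6 CPM in dp cells, PGK1 at 110.3 ± 7.50 and 105 ± 15.0 CPM, TPI1 at 238 ± 13.2 and 247 ± 13.2 CPM, and GPI at 163 ± 10.5 and 168 ± 11.6 CPM. ENO1 was at 30.7 ± 3.49 CPM in dn and 29.8 ± 7.29 CPM in dp cells. For each of these enzymes the difference between dn and dp means was smaller than the larger SD over dogs, a measure that ignores the pairing within dogs. Within dogs, LDHB was higher in dn cells of every dog (308, 272, 231 and 272 against 270, 242, 201 and 261 CPM). ALDOC was also higher in dn cells of every dog (60.3, 75.4, 95.3 and 126 against 58.7, 67.0, 74.7 and 125 CPM). HK1, PGK1, TPI1, GPI and ENO1 had dogs on both sides, and none of these differences was tested.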
